A study of Mus musculus with 6 samples.

Results

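The MYC family and the MAX network were followed in AKP mouse colorectal cancer organoids through 10 genes, chosen by name: the MYC family (Myc, Mycn and Mycl), their partner Max, the MAX-binding repressors Mxd1, Mxd3, Mxd4, Mnt and Mga, and the MAX-like gene Mlx. All 10 were among the 24190 genes listed in the count table, and 9 were among the 14692 genes with enough reads to be tested. Mycn was the member that did not pass the filter on low counts. Poly(A) RNA was sequenced from 6 samples of the MTO54 parental line, a mouse tumor organoid grown as dissociated single cells in basement membrane extract. Treated and control samples shared the AKP genotype, which includes alterations of Apc and p53. The 3 Folfiri samples received 5FU at 50 μg/μl (the unit as it was written in the protocol) together with SN38 at 100 nM, the active form of irinotecan. Exposure began 2 days after seeding and lasted 2 days by the labels and the methods, although another passage of the study gives a longer exposure, and the 3 control samples received fresh complete stem cell medium instead. Organoids of 1 line hold tumor epithelium without the stroma, vessels or immune cells of a tumor, and the samples of a group are described by the study as biological replicates. The labels do not say whether they were separate cultures, so p-values measure only the spread between these samples.

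MYC, MYCN and MYCL are transcription factors of the basic helix-loop-helix leucine zipper class that bind DNA as dimers with MAX, preferentially at the E-box CACGTG. The MXD proteins, MNT and MGA compete for MAX and, as dimers with it, mostly repress transcription, while MLX is a second hub that pairs with the glucose-sensing factors MondoA (Mlxip) and ChREBP (Mlxipl). In the intestinal epithelium Myc is a target of WNT signaling, and loss of Apc is known to raise it. 5FU and SN38, an inhibitor of topoisomerase I, interfere with DNA replication, and 5FU also with RNA processing.

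The libraries held between 22103591 and 30098210 counts, and levels are given as CPM, which scale counts to an equal library size with TMM factors. Control replicate 1 stood apart from the other controls, with a chi-square per degree of freedom between 22.4 and 23.7 against them, compared with 3.84 between control replicates 2 and 3. Folfiri replicate 3 was at 11.9 to 12.3 against the other Folfiri samples, which were at 3.55 with each other. Epithelial markers summed to 5732 to 6639 CPM in the controls and 4647 to 4818 CPM after Folfiri, and of the 9 markers listed Cdh1 was called higher and Epcam, Krt8, Krt19 and Cdx2 lower (the calls of Cdh1 and Krt8 were lost with a sample left out, and that of Krt8 with total counts), whereas the colonic marker Cdx1 was near 0 (0.519 CPM and 0.0108 CPM). Immune markers, of which 7 of 8 were listed, summed to 21.4 to 26.2 CPM and 21.6 to 22.6 CPM and consisted mostly of Cd68, with Tyrobp and Lyz2 at 0.0202 CPM or less in group means and Ptprc called higher (0.396 and 1.06 CPM). Fibroblast markers (5 of 6 listed) summed to 1.08 to 1.44 CPM and 1.97 to 2.41 CPM, and the 3 endothelial markers to 72.2 to 125 CPM and 65.5 to 76.2 CPM, nearly all Cdh5, with Pecam1 at 0.470 CPM and 0.459 CPM. Of the fibroblast markers, Dcn (0.0240 and 0.694 CPM) and Pdgfra (0.397 and 1.14 CPM) were called higher and Col1a1 (0.842 and 0.301 CPM) lower. The part of these cell types in the results was not tested. The proliferation marker Mki67 fell from 735 ± 34.1 CPM to 246 ± 29.5 CPM (SD, n = 3). In RNA from whole cultures, fewer cells of a type and less RNA per cell cannot be told apart.

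To show where the network could meet its own genes, promoter sequences were searched for the E-box. RefSeq promoters of GRCm38.p6, 250 bases before to 50 bases after each start, were found for 9 members, all but Myc. The palindrome CACGTG, which reads alike on both strands, was present in 4 of these 9, compared with 2349 of all 32851 promoters (7.15%). The 4 windows of 60 bases are shown with the E-box in capitals, each on the strand of its gene. The one of Mxd4 is chr5:34187897-34187956 on the minus strand, the one of Mnt chr11:74830774-74830833 on the plus strand, the one of Mlx chr11:101087223-101087282 on the plus strand and the one of Max chr12:76962246-76962305 on the minus strand.
Mxd4: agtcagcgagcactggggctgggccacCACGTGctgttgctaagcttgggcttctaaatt
Mnt: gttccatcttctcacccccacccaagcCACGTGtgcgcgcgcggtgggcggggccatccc
Mlx: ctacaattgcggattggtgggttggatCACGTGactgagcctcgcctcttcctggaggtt
Max: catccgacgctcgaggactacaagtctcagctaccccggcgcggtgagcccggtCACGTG

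The motif began 219 bases before the start in Mxd4, 123 before it in Mnt and 40 before it in Mlx, and it spanned the start of Max, beginning 3 bases before it. The windows of Mycn, Mycl, Mxd1, Mxd3 and Mga held no CACGTG. A match describes the letters of the window and not a bound site.

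After Folfiri, Myc was 3.41-fold higher, the repressors Mxd1, Mxd3 and Mnt were lower, and Mga was higher. Of the 9 tested members, 3 were called higher (Myc, Mga and Mlx), 4 lower (Max, Mxd1, Mxd3 and Mnt), and 2 were not called (Mycl and Mxd4), by edgeR's quasi-likelihood test with Benjamini-Hochberg adjustment over all tested genes at 0.05. The response to the drugs was broad: 79.1% of all tested genes were called, 40.3% higher and 38.8% lower, so a call alone did not set the members apart from other genes. The control and Folfiri samples did not overlap for 7 of the 9 tested members, against 81.4% of all tested genes. The median log2 fold change was -0.28 over the tested members (-0.18 without control replicate 1) and 0.02 over all tested genes. The middle of all tested genes, from the 25% to the 75% point, ran from -0.70 to 0.76. With libraries scaled by total counts in place of TMM factors, 4 members were called higher and 2 lower. Max and Mnt then lost their calls, Mxd4 was called higher, and the median of the members was -0.010. Over all 14692 tested genes that scaling gave 7320 called higher and 4250 lower.

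**Figure D1:**
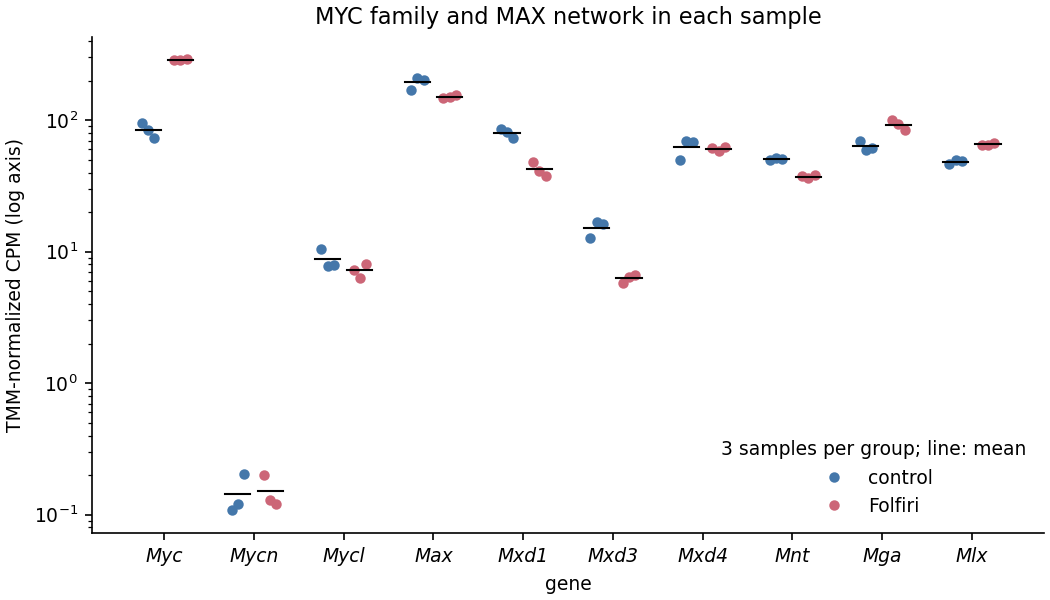
TMM-normalized CPM (log axis) of the 10 genes in each of the 3 control and 3 Folfiri samples, with a line at each group mean. Folfiri samples lie above the controls for Myc, Mga and Mlx and below them for Max, Mxd1, Mxd3 and Mnt, and the groups overlap for Mycn, Mycl and Mxd4.

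Myc (ENSMUSG00000022346, chr15:61985391-61990374 on the plus strand of GRCm38), the family member that drives ribosome production and cell growth, was measured at 95.4, 84.8 and 73.7 CPM in the 3 controls and at 288, 287 and 290.5 CPM in the 3 Folfiri samples. Every Folfiri sample was far above every control, and the Folfiri samples lay closer together than the controls. The means were 84.6 ± 10.9 and 288 ± 2.02 CPM (SD, n = 3), 3.41-fold higher after Folfiri. The log2 fold change was 1.77 (SE 0.0933, 95% interval 1.56 to 1.97), with an adjusted p of 5.57e-08 from edgeR. It ranged from 1.67 to 1.86 when each sample was left out in turn. Among the 14692 tested genes, 1205 had a larger log2 fold change, so Myc was not at the extreme of the response.

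Mycn (ENSMUSG00000037169, chr12:12936093-12941914 on the minus strand), the paralog best known from the developing nervous system, was at the limit of detection. The controls held 3, 3 and 4 counts and the Folfiri samples 6, 4 and 4 counts, and no difference was detectable at this depth. Mycl (ENSMUSG00000028654, chr4:122995652-123002485 on the plus strand), the paralog first found amplified in small cell lung cancer, was measured at 10.6, 7.72 and 7.92 CPM in the controls and at 7.28, 6.36 and 8.04 CPM after Folfiri. The groups overlapped, with control replicate 1 the highest of the 6. Its log2 fold change was -0.28 (95% interval -0.62 to 0.06, edgeR adjusted p 0.116), which leaves room for a fall as well as for little difference. It was -0.11 without control replicate 1 and -0.010 with total counts (adjusted p 0.960).

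Max (ENSMUSG00000059436, chr12:76937269-76962201 on the minus strand), the obligate partner of MYC and of its antagonists, was measured at 169.7, 208 and 204 CPM in the controls and at 147, 149.6 and 157 CPM after Folfiri. The Folfiri samples were all below the controls, and control replicate 1 was nearest to them. Max fell from 194 ± 20.9 to 151 ± 4.88 CPM, a log2 fold change of -0.36 (95% interval -0.55 to -0.17, edgeR adjusted p 0.00288). The fall depended on how library composition was scaled: with total counts in place of TMM factors, which moved the median of all tested genes up by 0.28 on the log2 scale, the log2 fold change of Max was -0.08 and not called (adjusted p 0.305). Measured from that median it was -0.38 with TMM factors and -0.37 with total counts. This distance hardly moves for any gene when only the scaling between libraries changes, so it does not test the fall.

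The MXD genes moved unequally. Mxd1 (ENSMUSG00000001156, chr6:86647042-86669161 on the minus strand), a repressor that rises as many cell types differentiate, was measured at 85.0, 80.9 and 73.2 CPM in the controls and at 48.3, 41.1 and 37.9 CPM after Folfiri. The groups were well separated, and the mean was 1.88-fold lower after Folfiri (79.7 ± 5.99 and 42.4 ± 5.31 CPM). The log2 fold change was -0.91 (SE 0.100, edgeR adjusted p 1.02e-05). Mxd3 (ENSMUSG00000021485, chr13:55325168-55329823 on the minus strand), the MXD gene linked to proliferating cells, was measured at 12.7, 16.7 and 16.2 CPM in the controls and at 5.73, 6.45 and 6.71 CPM after Folfiri. All Folfiri samples were below the lowest control, and the mean was 2.42-fold lower (log2 fold change -1.27, SE 0.134, edgeR adjusted p 7.29e-06), the largest fall among the tested members. Its exons overlapped those of Prelid1 on the opposite strand over 105 bases, and since the library kit does not mark strand, reads from that stretch cannot be assigned to either gene (log2 fold change of Prelid1 -1.04).

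Mxd4 (ENSMUSG00000037235, chr5:34173883-34187720 on the minus strand), a repressor expressed in many resting and differentiated tissues, was measured at 49.8, 69.8 and 67.8 CPM in the controls and at 61.8, 58.4 and 62.4 CPM after Folfiri. The Folfiri samples fell between control replicate 1 and the other controls, so the groups overlapped. The log2 fold change was -0.04 (95% interval -0.29 to 0.22, edgeR adjusted p 0.785). Control replicate 1 decided this reading: without it the log2 fold change was -0.18 and called lower (adjusted p 0.0204). With total counts it was 0.25 and called higher (adjusted p 0.0440), so no direction is given for Mxd4. Exons of Mxd4 also overlapped an antisense gene, Gm42846, over 514 bases.

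Mnt (ENSMUSG00000000282, chr11:74830920-74845725 on the plus strand), the broadly expressed MAX-binding repressor, had the tightest control values of the members, at 50.0, 51.3 and 50.6 CPM, and was at 37.4, 36.2 and 38.2 CPM after Folfiri. The groups did not overlap, and Mnt fell by 0.44 on the log2 scale (SE 0.0707, edgeR adjusted p 0.000172). With total counts the log2 fold change was -0.17 and not called (edgeR adjusted p 0.0667). The distance of Mnt from the median gene, -0.46 in each case, hardly moves with such a change of scaling and does not test the fall. Mga (ENSMUSG00000033943, chr2:119897228-119969581 on the plus strand), a large MAX partner that is the scaffold of a Polycomb complex, PRC1.6, was measured at 69.2, 59.3 and 61.2 CPM in the controls and at 99.8, 94.0 and 83.7 CPM after Folfiri. It was higher in every Folfiri sample than in any control, with means of 63.2 ± 5.24 and 92.5 ± 8.12 CPM, a log2 fold change of 0.55 (SE 0.0894, edgeR adjusted p 0.000195). With TMM factors Mga was the one MAX-binding repressor called higher.

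Mlx (ENSMUSG00000017801, chr11:101087277-101092207 on the plus strand), which does not bind MAX but shares several MXD partners with it, was measured at 46.3, 49.5 and 48.8 CPM in the controls and at 64.7, 65.2 and 66.7 CPM after Folfiri. Both groups were tight and did not overlap, and the log2 fold change was 0.44 (SE 0.0700, edgeR adjusted p 0.000152). The exons of Mlx overlapped those of Psmc3ip on the opposite strand over 385 bases, and Psmc3ip was itself called higher (log2 fold change 0.57, adjusted p 0.00552). The part of the shared stretch in the rise of Mlx was not tested.

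**Figure D2:**
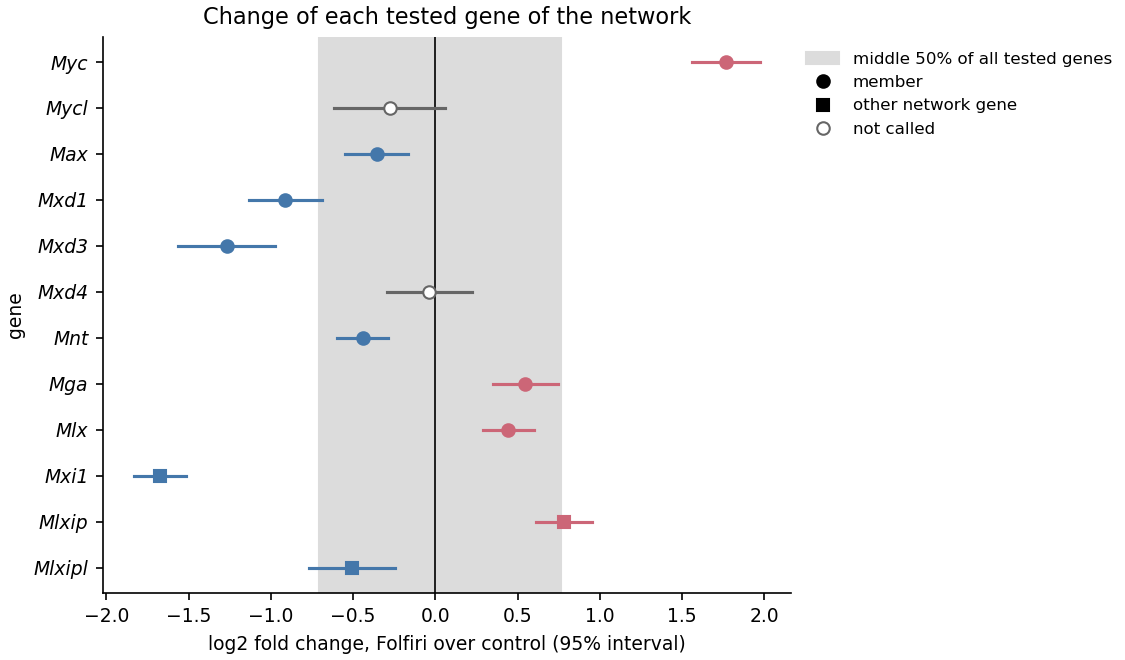
Log2 fold change of Folfiri over control with its 95% interval for the 9 tested members (circles) and for Mxi1, Mlxip and Mlxipl (squares), red where called higher, blue where called lower and open where not called, over a grey band for the middle of all tested genes. Myc, at 1.77, and Mlxip, at 0.78, lie above the band, and Mxd1, Mxd3 and Mxi1 lie below it.

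The remaining genes of the network moved as well. Mxi1, the MXD gene also called Mxd2, was measured at 249, 264 and 274 CPM in the controls and at 85.2, 81.1 and 80.6 CPM after Folfiri, with no overlap. Its log2 fold change was -1.67 (SE 0.0709, edgeR adjusted p 1.36e-08). Mlxip, which encodes MondoA, the partner of MLX, rose from 52.3 ± 3.83 to 90.1 ± 2.09 CPM (log2 fold change 0.78, adjusted p 3.86e-06). Mlxipl, which encodes ChREBP, was at 9.04 ± 0.558 and 6.36 ± 0.463 CPM (log2 fold change -0.51, adjusted p 0.00236), a fall that was not called with total counts (-0.23, adjusted p 0.117). All 3 overlap genes on the opposite strand.

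To compare levels between genes, CPM were divided by exonic length, the union of annotated exons. This need not be the length of the transcripts expressed, so orders and ratios between genes depend on it. In the controls Max had the highest level per length, at 53.8 CPM per kb, followed by Myc at 31.2, Mlx at 24.1, Mxd1 at 11.3, Mnt at 10.9, Mxd4 at 7.37, Mxd3 at 6.43, Mga at 4.12, Mycl at 2.16 and Mycn at 0.0439 CPM per kb. The sample values of Mxd1 overlapped those of Mnt, and those of Mxd4 overlapped those of Mxd3, so the order within each of these pairs was not resolved. After Folfiri Myc had the highest level, at 106 CPM per kb, above Max at 42.0 and Mlx at 32.8 CPM per kb. Mnt, Mxd4, Mga and Mxd1 followed between 8.06 and 6.00 CPM per kb, the last pair overlapping, and Mxd3 at 2.66, Mycl at 1.79 and Mycn at 0.0457 CPM per kb closed the order. The ratio of Myc to Max per length was 0.479 to 0.745 in the controls and 2.45 to 2.58 in the Folfiri samples. Per length, Myc was thus below Max in every control and above it in every Folfiri sample.

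Myc made up 93.0% to 94.1% of the length-scaled level of the MYC family in the controls and 98.1% to 98.5% after Folfiri. The sum of the 5 MAX-binding repressors among the members (Mxd1, Mxd3, Mxd4, Mnt and Mga) was 38.6 to 41.7 CPM per kb in the controls and 29.3 to 31.1 CPM per kb after Folfiri. The ratio of the MYC family to these repressors was 0.726 to 0.979 in the controls and 3.47 to 3.72 after Folfiri, and with Mxi1 added to the repressors it was 0.363 to 0.503 and 2.47 to 2.65. Within the sum of Mxd1, Mxd3 and Mxd4, Mxd1 supplied 41.1% to 51.7% in the controls and 34.5% to 41.3% after Folfiri, while Mxd4 supplied 25.3% to 31.7% and 44.1% to 47.3%. Mxd4 thereby had the largest share of the 3 in each Folfiri sample. These ratios are within a sample and do not depend on the scaling between libraries, although they do depend on the exonic length used for each gene.

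**Figure D3:**
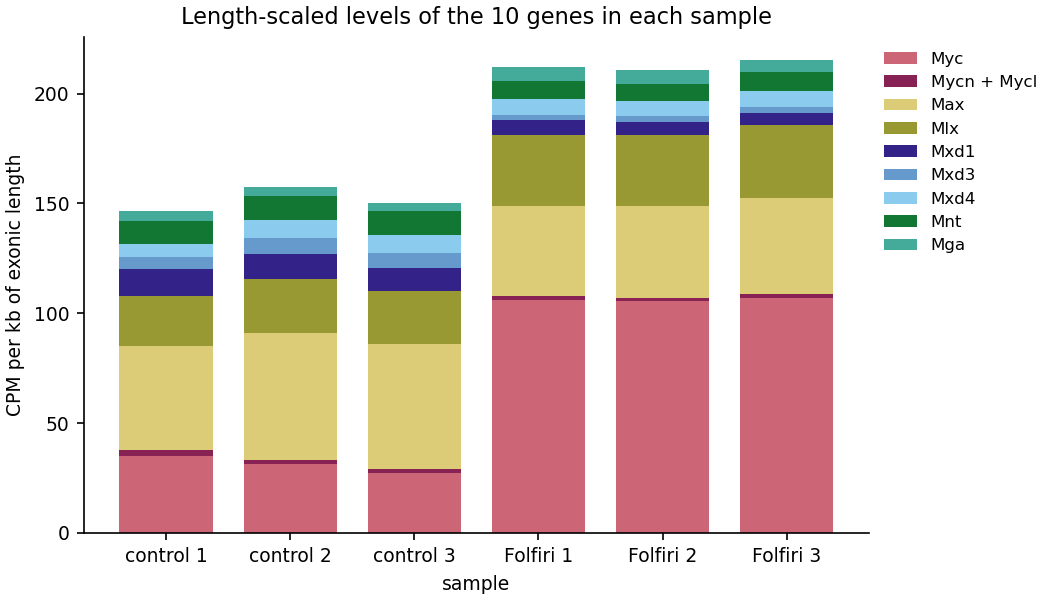
Levels of the 10 genes in CPM per kb of exonic length, stacked for each of the 6 samples. The Myc segment grows from a mean of 31.2 to 106 CPM per kb while the Max segment goes from 53.8 to 42.0 CPM per kb.

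Genes that act with the network or on MYC protein were read from 4 lists. Of 12 MYC cofactors, 5 were called higher and 4 lower, with a median log2 fold change of -0.03. That is 9 of 12 called, a share near the 79.1% of all tested genes. The histone acetyltransferase Kat2a (1.66), the helicase Ruvbl1 (1.28) and Wdr5 (1.08), which anchors MYC to chromatin, rose, and Trrap, a scaffold of acetyltransferase complexes, fell by 0.55 on the log2 scale. Ep400 and Kat5 were called lower at -0.29 each, but not with total counts (-0.021 and -0.013, adjusted p 0.868 and 0.873). With that scaling 8 of the 12 were called higher and 1 lower (median 0.25). Over all 14692 tested genes it gave 7320 called higher and 4250 lower (median 0.30). Of 8 corepressors used by MXD proteins and MNT, 5 were higher and 2 lower (median 0.30), against 40.3% and 38.8% of all tested genes. With total counts 6 of these 8 were higher and 2 lower (median 0.58). The deacetylases Hdac1 (1.13) and Hdac2 (0.50) and the histone chaperone Rbbp4 (0.59) rose, whereas Sin3a (-0.78), the scaffold that MXD proteins bind, and Sap30 (-1.09) fell.

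Among 10 partners of MGA in PRC1.6, 5 were higher and 3 lower (median 0.31), a called share of 80.0% that was near that of all tested genes, 79.1%. Pcgf6, the subunit that defines the complex, rose from 17.1 ± 2.48 to 57.8 ± 1.97 CPM (log2 fold change 1.75) and L3mbtl2 rose by 1.56. The called falls were small, -0.34 for Yaf2, -0.28 for Rnf2 and -0.22 for Cbx3. With total counts none of the 10 was called lower and 6 were called higher (median 0.58). Over all 14692 tested genes that scaling gave 7320 called higher and 4250 lower (median 0.30). Of 15 genes for the stability and turnover of MYC protein, 4 were higher and 9 lower (median -0.54), against 40.3% and 38.8% of all tested genes. With total counts 5 were higher and 8 lower (median -0.26), beside the counts over all tested genes given above for that scaling. Usp36, a nucleolar deubiquitinase that protects MYC, rose from 26.8 ± 3.79 to 117 ± 5.92 CPM (2.12), and the ubiquitin ligase subunit Skp2 rose too (1.19). Aurka (-0.95), whose kinase shields MYC proteins from degradation, fell along with the ubiquitin ligases Stub1 (-0.95) and Huwe1 (-0.89). Of the 2561 exonic bases of Stub1, 1084 overlapped Jmjd8 on the opposite strand, and exons of Kat5, Rbbp4, Sin3a, L3mbtl2 and Rnf2 also overlapped genes on the opposite strand. Fbxw7, the substrate receptor for phosphorylated MYC, was measured at 18.4, 13.1 and 12.4 CPM in the controls and at 16.6, 14.7 and 15.0 CPM after Folfiri, overlapping and not called (log2 fold change 0.07). It was singled out after its values were seen.

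Known targets of the network were read from 4 further lists. Like the lists above, they were chosen with earlier results of these data known, so their counts are no independent test of MYC activity. Of 28 genes that MYC is known to activate, 23 were called higher, 3 lower and 2 were not called, with a median log2 fold change of 1.04 against 0.02 over all tested genes and against 40.3% of all tested genes called higher. Nolc1, a chaperone of nucleolar particles, was measured at 88.0, 47.0 and 45.6 CPM in the controls and at 457, 482 and 482 CPM after Folfiri (log2 fold change 2.97). Gnl3, which encodes nucleostemin, rose from 35.6 ± 7.51 to 227 ± 11.3 CPM (2.67), and Polr1b, a subunit of RNA polymerase I, by 2.32. For Nolc1 control replicate 1 lay nearer the Folfiri samples than the other controls did, and without that sample the list had the same counts, 23 higher and 3 lower, with a median of 1.22. The 3 that fell were Ldha, the lactate dehydrogenase of glycolysis, from 3845 ± 353 to 1464 ± 84.0 CPM (-1.39), the cap-binding factor Eif4e (-0.97) and the nucleolar chaperone Npm1 (-0.36), the last not called with total counts (-0.08, adjusted p 0.248). In the promoter search, 7 of the 23 target genes with an entry held CACGTG, against 8.09% of all genes.

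Of 7 genes that MYC is known to repress, none was called higher and 4 were called lower (median -1.04). That is a called share of 57.1%, below the 79.1% of all tested genes. With total counts 1 was higher and 4 were lower (median -0.75), against 7320 and 4250 of all 14692 tested genes (median 0.30). Ndrg1, a stress- and hypoxia-responsive gene, fell from 1181 ± 148 to 60.4 ± 4.24 CPM (log2 fold change -4.29), with 38 tested genes lower still. Cdkn1a, which encodes the cell cycle inhibitor p21 and is a classical p53 target, fell from 256 ± 18.9 to 82.7 ± 4.95 CPM (-1.63). Gadd45a, another gene of the DNA damage response, fell by 1.84 on the log2 scale. All 3 overlap genes on the opposite strand, and no promoter of the 5 genes of this list with an entry held CACGTG.

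Among the 4 genes taken as targets of MLX and MondoA, Arrdc4, an arrestin that limits glucose uptake, was measured at 25.3, 44.7 and 45.6 CPM in the controls and at 75.1, 72.7 and 78.4 CPM after Folfiri. It was higher in all Folfiri samples (log2 fold change 0.97, edgeR adjusted p 0.000466). Txnip, its paralog and the best known MondoA target, was measured at 478, 1147 and 1197 CPM in the controls and 697, 680 and 643 CPM after Folfiri. Control replicate 1 was below the Folfiri samples and the other controls above them, and Txnip was not called with the filter on low counts and all samples (-0.48, adjusted p 0.114). It was called lower without control replicate 1 (-0.80, edgeR adjusted p 5.93e-08) and, with all samples, when no filter was used (-0.51). Of the 3123 exonic bases of Txnip, 606 overlapped Gm15441 on the opposite strand. Klf10 was called lower (-0.40, adjusted p 0.0126) but not with total counts or without Folfiri replicate 3 (adjusted p 0.0544), and Pklr was not tested.

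MGA with PRC1.6 is known to silence germ cell genes in other tissues, and 13 of 14 such genes were listed. Of these, 3 were tested: Tdrkh was higher (log2 fold change 1.44), and Zcwpw1 (-1.37) and Ddx4 (-0.82) were lower, with Tdrkh and Zcwpw1 overlapping genes on the opposite strand. Ddx4 had 18, 16 and 10 counts in the controls and 11, 14 and 7 counts after Folfiri, and its call (adjusted p 0.0394) was lost with total counts (adjusted p 0.150) and with some samples left out (adjusted p up to 0.136). The other 10 listed genes stayed close to 0, with summed counts of 1, 5 and 0 in the controls and 23, 32 and 20 in the Folfiri samples and no count above 11 in any sample. In the promoter search 7 of the 14 germ cell genes held CACGTG.

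**Figure D4:**
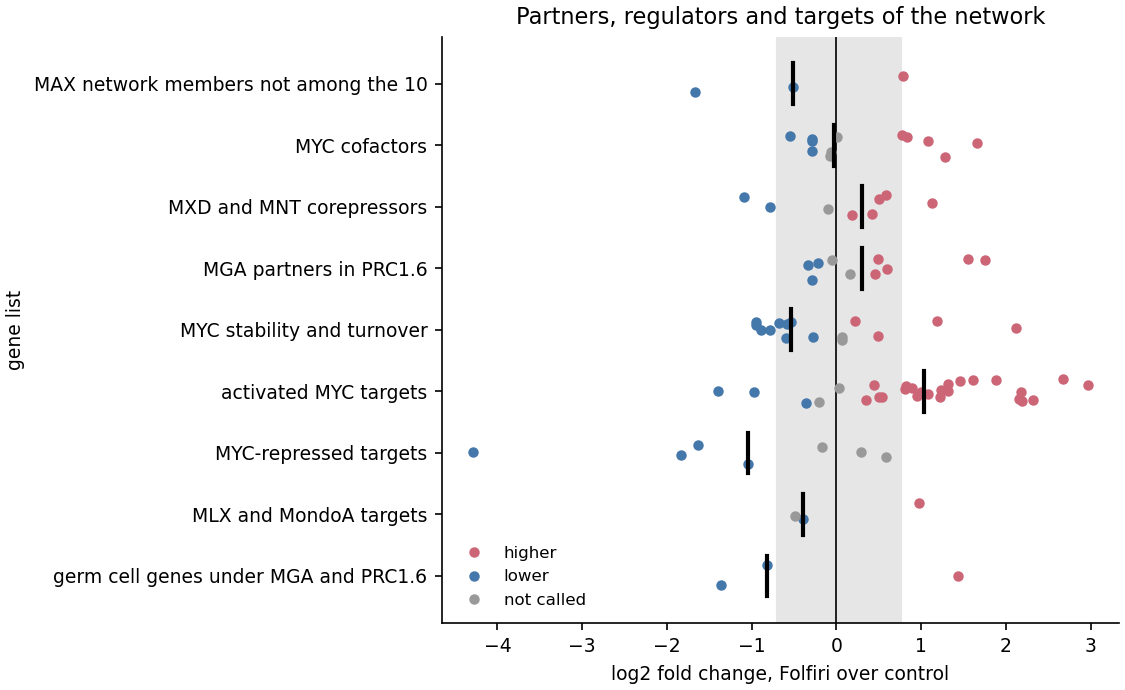
Log2 fold change of Folfiri over control for each tested gene of the 9 lists, one point per gene coloured by its call, with a black bar at the median of the list and a grey band for the middle of all tested genes. The activated MYC targets lie mostly to the right, with a median of 1.04, and the MYC-repressed targets to the left, with a median of -1.04.

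By the root mean square distance in log2 CPM over the 6 samples, each gene centred on its own mean, the genes whose pattern was most like that of Myc among 9467 with a mean of at least 10 CPM were Gtpbp4 (distance 0.0378), Hdhd5 (0.0384), Palb2 (0.0548), Pus7 (0.0570) and Il17ra (0.0575). With 3 samples on each side, the likeness mostly reflects a similar difference between the groups.

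The members also differ in genomic length, from 4.66 kb for Mxd3 to 72.4 kb for Mga, and the response to Folfiri varied with length over all tested genes. The median log2 fold change was -0.13 for genes under 10 kb, 0.27 from 10 to 30 kb, 0.05 from 30 to 100 kb and -0.40 from 100 kb. Among the tested members, Myc, Mycl, Mxd3 and Mlx were under 10 kb, and Mga lay in the 30 to 100 kb range. The part of genomic length in the members' changes was not tested. With span taken into the fit, Myc had a log2 fold change of 1.69, and Mycl (-0.46, adjusted p 0.0167) and Mxd4 (-0.37, adjusted p 0.0131) were called lower.

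**Figure D5:**
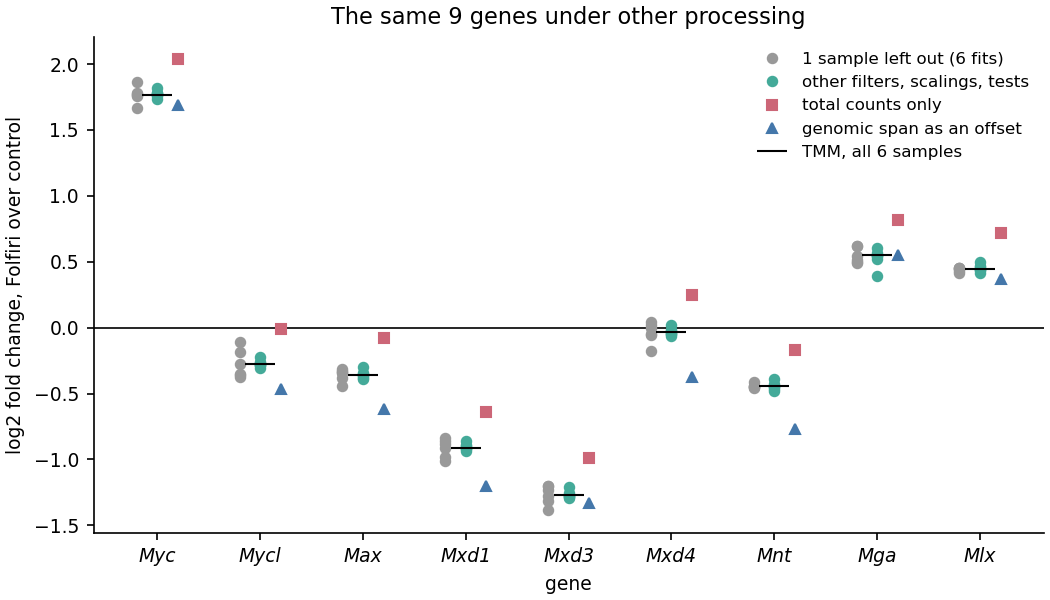
Log2 fold change of the 9 tested members with TMM scaling and all 6 samples (line), with each sample left out, under other filters, scalings and tests, with total counts only and with genomic span as an offset. Myc stays between 1.67 and 2.04, whereas Max, Mxd4 and Mnt move toward or past 0 with total counts.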

How the data were processed

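RNA was selected on poly(A), and libraries were made with a kit that does not mark strand. Per the study's methods the authors aligned reads with STAR 2.5.2 and counted them per gene with Rsubread on GRCm38, and the deposited values were raw counts per gene with no normalization. Strand and multi-mapping settings were not given in the sources used here. Of 24190 gene IDs, 24168 had a GENCODE vM21 symbol. The 3 control and 3 Folfiri samples were grouped by their labels. In R 4.3.3, edgeR 4.0.16 (TMM factors, default filter on low counts, quasi-likelihood test) was fitted on all 6 samples with treatment as the only term, and p-values were adjusted by Benjamini-Hochberg over 14692 genes, with a threshold of 0.05. CPM are TMM-normalized, and lengths are the union of exons. The fit was tested on simulated data. The members and gene lists were chosen with earlier results of these data known. All members were named. From lists of over 4 genes, up to 3 per direction were named, those with the largest changes among called genes with groups that did not overlap and a mean of at least 1 CPM, except 1 that is not reported here. Alternatives were other scalings, filters, DESeq2 1.42.0, a replicate block, each sample left out, and gene span or GC content as an offset.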

Additional observations from a re-analysis of the deposited data

How the results depend on the processing

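The number of genes called ranged from 10383 with a mean of at least 1 CPM to 12742 without a filter, against 11623, and from 11021 to 12312 with 1 sample left out. Scaling by total counts raised the share of called genes that were higher from 51.0% to 63.3%. It left 2 members called lower, moved the median of the members to -0.010 and turned Max to -0.076 and Mnt to -0.17, both not called, and Mxd4 to 0.25, called higher. Under it Cbx3 was at 0.057 in place of -0.22 (a call also lost when control replicate 3 or any Folfiri replicate was left out), and 1 gene was called among the targets of MLX and MondoA. With samples left out that list had 1 to 3 called, 1 of them without Folfiri replicate 3, and Mxd4 ranged from -0.18 to 0.043, the lowest without control replicate 1. Genomic span as an offset moved the median of the members to -0.46, with Mycl at -0.46 and Mxd4 at -0.37 called lower. The cause of these shifts was not tested. Samples with the same number did not deviate together (r of 0.03, -0.12 and 0.04), and with a replicate block 11499 genes and 7 members were called. Myc, Mxd1, Mxd3, Mga and Mlx kept their direction and call under every alternative run. The difference of Mycl was not resolved against its own spread, and Mycn was below the depth needed for a test.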
